A study of Oryctolagus cuniculus with 6 samples.

Results

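The ADAM and ADAMTS metalloproteinases were described here across 6 RNA-seq libraries of rabbit (Oryctolagus cuniculus) tissue. Members were all rows of the deposited gene table whose gene name begins with ADAM, ADAMTS or ADAMTSL followed by a digit, which gave 38 of 16367 genes. They comprise 17 ADAM, 18 ADAMTS and 3 ADAMTSL genes. A further 5067 rows carry no gene name, so any member among them was missed. ADAMDEC1, whose name has a letter after ADAM, is not among them. By their titles, 3 of the libraries are controls and 3 are test samples. The labels give no genotype, strain, age, treatment or time point for either group, nor do they state how many animals were used. The p-values below thus rest on the spread among these 6 samples alone, and that spread may be technical. The tissue is subcutaneous by the sample labels and perichondral, meaning the sheath of cartilage, by the title of the series.

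ADAM proteins are membrane-anchored enzymes that cut the outer part of other membrane proteins free, a step called shedding, and so release growth factors, cytokines and receptors. ADAMTS proteins are secreted enzymes with thrombospondin repeats, and several of them cut the proteoglycans and process the collagens of cartilage and loose connective tissue. ADAMTSL proteins resemble ADAMTS proteins without the protease domain, and several bind the fibrillin microfibrils of the matrix.

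Total counts per library ran from 17820537 to 23105606. Levels are given as CPM, the count scaled to a common library size and so comparable between libraries but not between genes of different length, and differences as log2 fold changes of test over control from the edgeR quasi-likelihood test, with their standard errors. A gene was called at a Benjamini-Hochberg adjusted p under 0.05 over all 12740 genes tested. Cartilage markers were present in every library, with all 6 listed chondrocyte genes in the table and a summed level of 1463 to 3786 CPM in control and 3338 to 4753 CPM in test libraries. None of these 6 was called. Control replicate 1 stood apart from the other control libraries, with the lowest chondrocyte sum, 1463 CPM against 3080 and 3786, and the highest B and plasma cell sum, 1273 CPM against 523 and 530.

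Other cell type markers differed between the groups. Of the fibroblast markers, 3 of 4 in the table fell (COL1A1, DCN and DPT), and LUM was not called. The 4 summed to 7195 to 10270 CPM in control and 5686 to 6307 CPM in test libraries. COL1A1 alone made up 4269 to 6525 CPM of the control sums and 2549 to 3287 CPM of the test sums. The lower sums thus rest largely on that gene. The giant cell markers summed to 3128 to 3647 CPM and 6350 to 6736 CPM, and all 3 that could be tested rose. Neutrophil markers summed to 71.0 to 134.5 CPM and 403 to 459 CPM, with 3 of 5 tested higher and MPO at 0 in the control group. Macrophage markers summed to 2175 to 2394 CPM and 1723 to 2011 CPM, with 2 of 6 higher and 1 lower. Endothelial markers summed to 784.2 to 1275 CPM and 678 to 784.4 CPM, with 1 of 6 lower, which was VWF. B and plasma cell markers summed to 523 to 1273 CPM and 117 to 261 CPM, with 3 of 5 lower. Skeletal muscle markers summed to 3.1 to 5.09 CPM and 50.7 to 61.7 CPM, with 6 of 6 higher and CKM at 0 in the control group. Among osteoblast markers 2 of 4 tested rose, with SP7 at 0 in the control group, but the sums overlapped (62.0 to 303.4 and 227.0 to 352.7 CPM). Among pericyte and smooth muscle markers 2 of 5 fell, and the sums overlapped too (462.7 to 585.1 and 418.0 to 482.1 CPM). Adipocyte markers summed to 76.9 to 162.6 and 44.1 to 52.9 CPM, with 1 of 2 tested lower. In the opposite direction, CIDEC was at 0 in the control group but not in the test group. The part of these cell types in the results below was not tested. In whole tissue, fewer cells of a type and less RNA per cell cannot be told apart.

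The test tissue held less transcript of the aggrecanase gene ADAMTS5, of its neighbour ADAMTS1, of the sheddase ADAM10 and of ADAMTS12 and ADAMTS18. It held more of ADAMTS10, of ADAMTSL4 and of the gene listed as ADAM2. The filter on low counts kept 30 of the 38 members, 11 ADAM, 16 ADAMTS and 3 ADAMTSL. Of these 30, 3 rose and 5 fell, so that 26.7% were called. Of all tested genes 13.0% were called, 6.84% higher and 6.15% lower. The family was chosen with earlier results of these data known, so its share is given without a test. The median log2 fold change of the 30 was -0.04, beside -0.004 over all tested genes, so the members did not move one way. The groups did not overlap in 12 of the 30, 5 with the test libraries higher and 7 with them lower, as held for 35.0% of all tested genes.

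**Figure D1:**
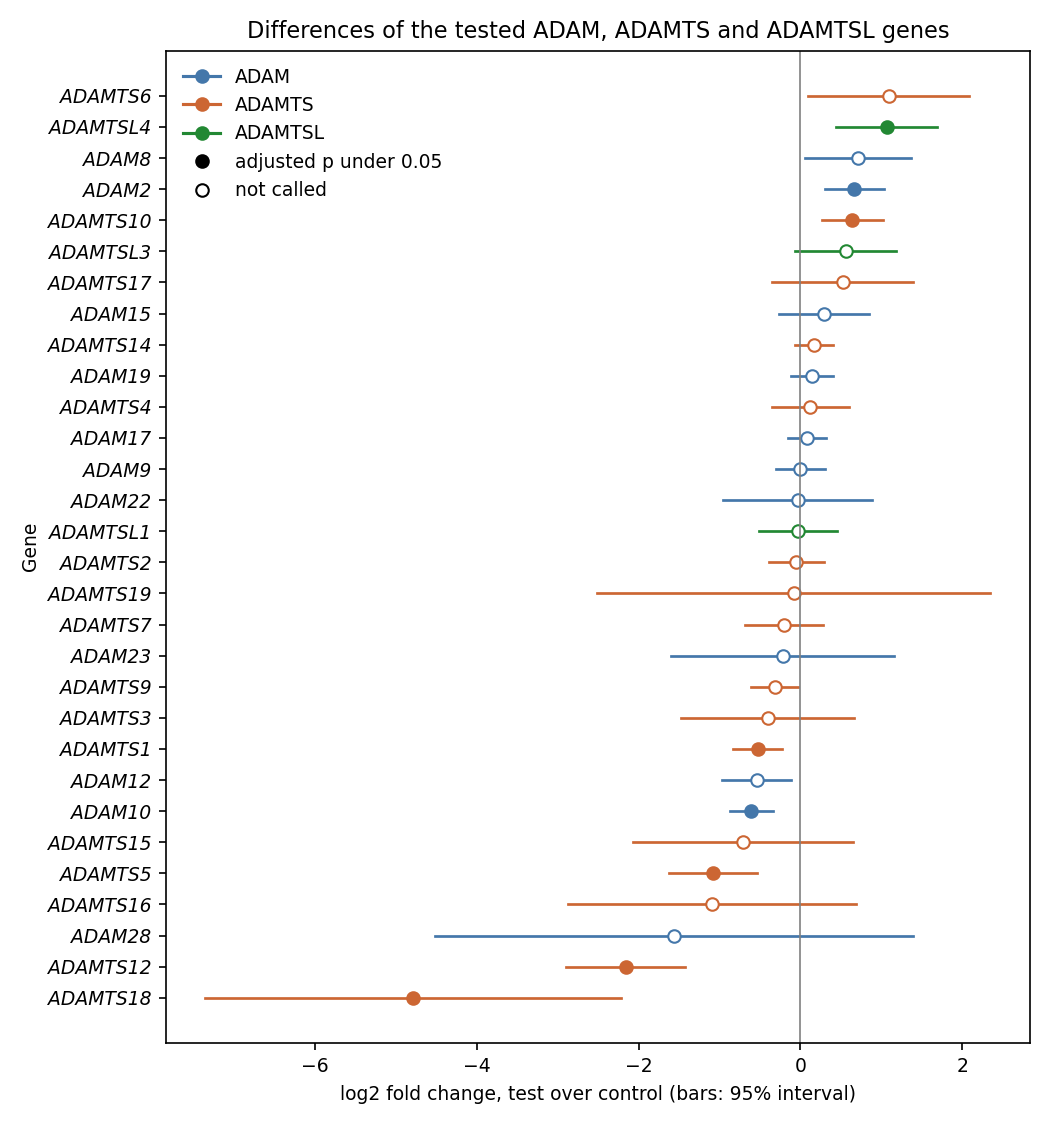
Log2 fold change of test over control for each of the 30 tested genes (points) with its 95% interval (bars), coloured by gene type, with filled points for an edgeR adjusted p under 0.05. The 8 filled points run from ADAMTS18 at -4.79 to ADAMTSL4 at 1.07, and the open point farthest from 0 is ADAM28 at -1.57 with a wide interval.

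Of the 8 calls, ADAMTS12 alone held without any single library. All 8 held without control replicate 1. Without control replicate 2 the calls of ADAMTS10 and ADAMTSL4 ended (edgeR adjusted p = 0.0536 and 0.0522). Without control replicate 3, test replicate 1 or test replicate 2 the other 7 calls ended (adjusted p from 0.0537 to 0.121, 0.0551 to 0.115 and 0.0743 to 0.116). Without test replicate 3, 6 ended (0.065 to 0.156) and ADAM10 was kept. The sign of each of the 8 was the same in every alternative tried.

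**Figure D2:**
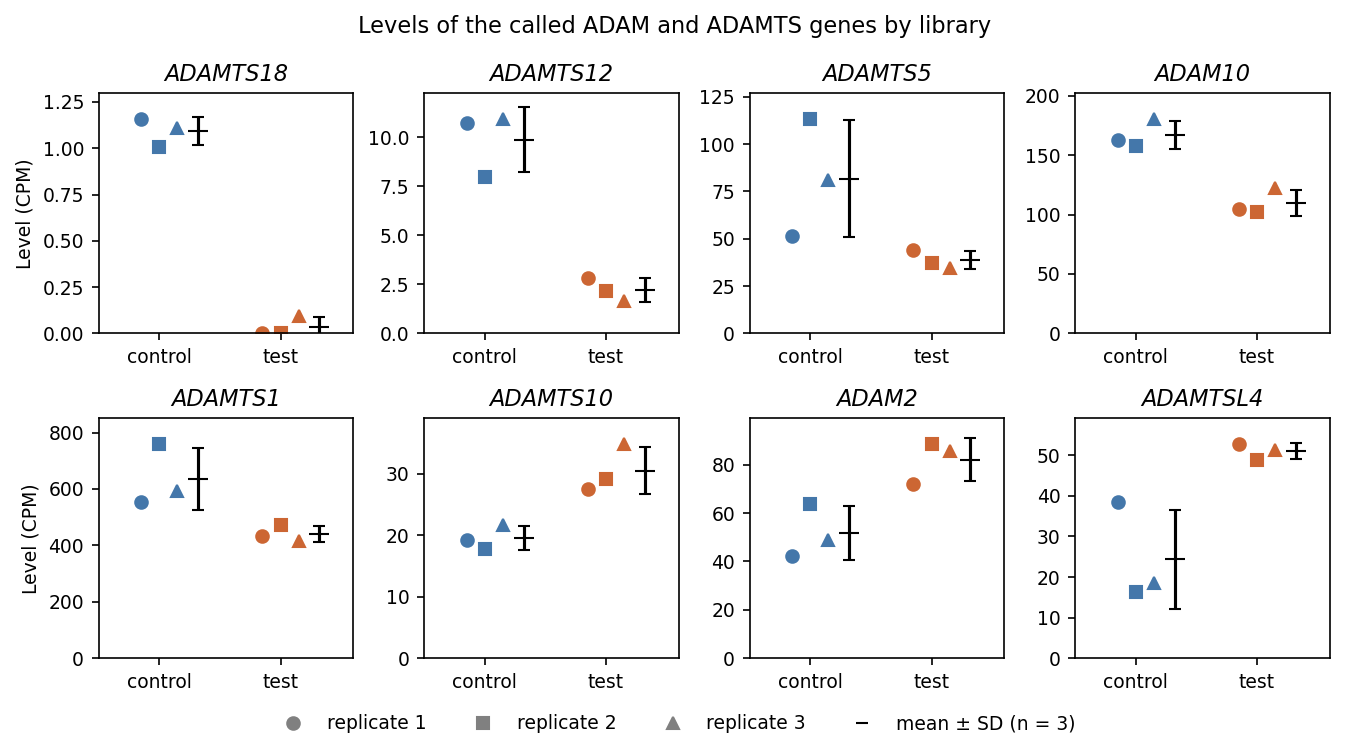
Level in CPM (vertical axis, from 0) of the 8 called genes in each control and test library, with the mean and SD of 3 libraries per group as black bars. In each panel the 3 test points lie all below or all above the 3 control points, as for ADAMTS12 with controls from 7.98 CPM upward and test libraries up to 2.83 CPM.

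Among the membrane sheddases, 8 of 9 members were tested, 1 fell and 0 rose, with a median log2 fold change of 0.04. ADAM10 (ENSOCUG00000016023), which sheds Notch receptors and N-cadherin, stood at 162.4, 158 and 180.3 CPM in the control libraries and at 104.5, 102.2 and 122.3 CPM in the test libraries, in the order of replicates 1 to 3 here and below. Every test library lay below every control library. Its mean and SD were 166.9 ± 11.8 CPM in control and 109.6 ± 11 CPM in test tissue, with 3 libraries in each group as for all means that follow. This was a 1.52-fold fall (log2 fold change -0.61 ± 0.12, edgeR adjusted p = 0.0119). When each library's trend with the genomic span of genes was removed, its log2 fold change was -0.41 and its adjusted p 0.0563.

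ADAM17 (ENSOCUG00000010474), the sheddase of TNF and the closest relative of ADAM10, was at 161.1, 166.9 and 177.5 CPM in control and 184.1, 174.4 and 177.1 CPM in test libraries. The groups overlapped, and the gene was not called (edgeR adjusted p = 0.646), with a 95% interval of 0.902 to 1.24 for the ratio of test to control. The count of ADAM10 per count of ADAM17, a ratio within each library that no scaling between libraries touches, was 1.01, 0.946 and 1.02 in control and 0.567, 0.586 and 0.691 in test libraries. This ratio was chosen after the values were seen and is given without a test. The 3 test ratios lay below the 3 control ratios.

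ADAM9 (ENSOCUG00000013380), a widely expressed sheddase, was at 286.1, 406.3 and 353.1 CPM in control and 349.9, 354 and 341.7 CPM in test libraries. The test values lay within the range of the control values, and the ratio of test to control had a 95% interval of 0.813 to 1.23. ADAM19 (ENSOCUG00000001235), which sheds neuregulins, was at 187.3, 204.8 and 194.1 CPM in control and 204.4, 199.1 and 242.3 CPM in test libraries. It was not called either (log2 fold change 0.14 ± 0.12, edgeR adjusted p = 0.471). Its interval for the ratio of test to control ran from 0.921 to 1.32.

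A further 4 members had an unadjusted p under 0.05 without being called, and their libraries are given because of that, a choice made after their values were seen. ADAM12 (ENSOCUG00000008781), a protease first described in fusing muscle cells, was at 35.5, 31.1 and 45.4 CPM in control and 23.1, 22.9 and 30.9 CPM in test libraries. The highest test value was just under the lowest control value (log2 fold change -0.54 ± 0.19, edgeR adjusted p = 0.0943). Without control replicate 2 it was called, at -0.65 (adjusted p = 0.0446).

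ADAM8 (ENSOCUG00000001216), a protease of leukocytes and osteoclasts, was at 65, 25.8 and 29.8 CPM in control and 72.8, 63.2 and 61.5 CPM in test libraries. Control replicate 1 reached the test values, while the other control libraries were far below them. The gene was not called (log2 fold change 0.71 ± 0.29, edgeR adjusted p = 0.141). Without control replicate 1 its log2 fold change was 1.25 and it was called (adjusted p = 0.000534). ADAM15, a sheddase of endothelial and smooth muscle cells, averaged 40.3 ± 14.8 CPM in control and 49.3 ± 4.24 CPM in test libraries, where control replicate 2 was low at 23.3 CPM. ADAM28, a protease of lymphocytes, had 0, 54 and 20 counts in control and 13, 7 and 1 in test libraries. Neither was called (adjusted p = 0.481 and 0.48).

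The ADAMTS enzymes that cut aggrecan and versican, the large proteoglycans that hold hyaluronan, held 2 of the 5 falls. In this group 5 of 7 members were tested, 2 fell and 0 rose, with a median log2 fold change of -0.53. ADAMTS5 (ENSOCUG00000002859), the main aggrecanase of mouse cartilage, was at 51.2, 113.1 and 81 CPM in control and at 44, 37.1 and 34.8 CPM in test libraries. The control libraries were spread over a 2.21-fold range and the test libraries over a 1.27-fold range, and the groups did not overlap. The level fell 2.12-fold (log2 fold change -1.08 ± 0.24, edgeR adjusted p = 0.0194). Without control replicate 2, the highest library, the log2 fold change was -0.77 (adjusted p = 0.0247).

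ADAMTS1 (ENSOCUG00000016362), a protease of versican and aggrecan, was at 555.4, 759.4 and 591.1 CPM in control and 433.8, 473.1 and 415.5 CPM in test libraries. Every test library was below every control library, with a 1.44-fold fall from 635.3 ± 109 to 440.8 ± 29.4 CPM (log2 fold change -0.53 ± 0.14, edgeR adjusted p = 0.0316). In the RefSeq gene table of the rabbit, ADAMTS5 and ADAMTS1 are adjacent protein-coding genes, and in both genes control replicate 2 was the highest of the 6 libraries.

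ADAMTS4 (ENSOCUG00000013498), the other main aggrecanase, was at 28.8, 20.1 and 31.5 CPM in control and 24.3, 27.4 and 35.8 CPM in test libraries. The groups overlapped and it was not called (edgeR adjusted p = 0.749), with a 95% interval of 0.783 to 1.51 for the ratio of test to control. Counts of ADAMTS5 per count of ADAMTS4 were 1.78, 5.63 and 2.57 in control and 1.81, 1.36 and 0.97 in test libraries. Control replicate 1 and test replicate 1 had nearly the same ratio, so this ratio did not separate the groups. It is given without a test, as chosen after the values were seen.

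ADAMTS9 (ENSOCUG00000000109), a versican-cleaving enzyme, was among the 4 with an unadjusted p under 0.05. Its levels were 53.4, 48.9 and 51.6 CPM in control and 39.7, 38.6 and 45.2 CPM in test libraries, without overlap (log2 fold change -0.32 ± 0.13, edgeR adjusted p = 0.138). ADAMTS15, another versican protease, averaged 5.43 ± 3.68 and 3.32 ± 1.51 CPM. Replicate 2 was the lowest library in each group, at 1.38 CPM in control and 1.61 CPM in test (adjusted p = 0.487). ADAMTS8 is the neighbour of ADAMTS15 in the RefSeq table. Like ADAMTS20 it had too few counts to be tested, with 2 to 36 counts per library, where ADAMTS20 had 1 to 29.

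The procollagen N-proteinases, which remove the amino-terminal propeptide of fibrillar procollagens, held no call among 3 tested members (edgeR), 0 also by DESeq2 and limma-voom, and 0 had an unadjusted p under 0.05. Their median log2 fold change was -0.05. ADAMTS2 (ENSOCUG00000001035), the main enzyme of this kind for type I procollagen, was at 49.1, 65.2 and 64.6 CPM in control and 60.7, 49.3 and 62.8 CPM in test libraries. The ratio of test to control had a 95% interval of 0.762 to 1.22. ADAMTS14 (ENSOCUG00000017775) was at 112.7, 111.5 and 113.9 CPM in control and 129, 121.7 and 128.7 CPM in test libraries. The groups did not overlap, yet the difference was small (log2 fold change 0.17 ± 0.10, edgeR adjusted p = 0.324). ADAMTS3 averaged 3.61 ± 1.82 and 2.72 ± 0.24 CPM (adjusted p = 0.624).

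Of the enzymes that bind and cut cartilage oligomeric matrix protein (COMP), both members were tested and 1 fell. ADAMTS12 (ENSOCUG00000006357) was at 10.7, 7.98 and 10.9 CPM in control and at 2.83, 2.16 and 1.64 CPM in test libraries. The lowest control library was far above the highest test library. The level fell 4.48-fold, from 9.88 ± 1.65 to 2.21 ± 0.599 CPM (log2 fold change -2.16 ± 0.33, edgeR adjusted p = 0.00377). Across the 14 alternatives its log2 fold change stayed between -2.37 and -1.96, and its adjusted p was at most 0.0286.

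ADAMTS7 (ENSOCUG00000026922), its closest relative, averaged 56.2 ± 15.1 CPM in control and 48.6 ± 9.68 CPM in test libraries and was not called (log2 fold change -0.21 ± 0.22, edgeR adjusted p = 0.572). The count of ADAMTS7 per count of ADAMTS12 was 5.85, 4.87 and 6.12 in control and 13.2, 25 and 33.3 in test libraries. The 3 test ratios lay above the 3 control ratios. This ratio too was chosen after the values were seen and was not tested.

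Among the ADAMTS enzymes related to fibrillin, 4 of 4 members were tested, 1 rose and 0 fell, with a median log2 fold change of 0.58. ADAMTS10 (ENSOCUG00000026658), a fibrillin-binding protein whose loss in people gives Weill-Marchesani syndrome, was at 19.2, 17.8 and 21.6 CPM in control and 27.5, 29.2 and 34.9 CPM in test libraries. Every test library was above every control library, with a 1.56-fold rise (log2 fold change 0.64 ± 0.17, edgeR adjusted p = 0.0346). After the span correction its adjusted p was 0.0506, at a log2 fold change of 0.57.

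ADAMTS6 (ENSOCUG00000001525), its closest relative, was at 2.73, 1.42 and 5.06 CPM in control and 6.17, 7.24 and 6.2 CPM in test libraries. The groups did not overlap, but the control libraries ranged over 3.56-fold and the gene was not called (log2 fold change 1.09 ± 0.45, edgeR adjusted p = 0.138). ADAMTS17, also linked to Weill-Marchesani syndrome, averaged 6.98 ± 3.56 and 10 ± 1.75 CPM, with control replicate 2 low at 2.98 CPM. ADAMTS19, a gene of heart valve development, averaged 0.638 ± 0.575 and 0.604 ± 0.143 CPM. Neither was called (adjusted p = 0.419 and 0.971).

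All 3 ADAMTS-like members were tested, 1 rose and 0 fell, with a median log2 fold change of 0.56. ADAMTSL4 (ENSOCUG00000000927), a fibrillin-binding protein of the eye's lens suspension and of other connective tissue, was at 38.4, 16.2 and 18.4 CPM in control and 52.8, 48.8 and 51.4 CPM in test libraries. Test libraries lay within a 1.08-fold range, while control replicate 1 was 2.36-fold above control replicate 2. The level rose 2.09-fold (log2 fold change 1.07 ± 0.28, edgeR adjusted p = 0.0347). As for ADAM8, control replicate 1 was the control library closest to the test group.

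ADAMTSL3 (ENSOCUG00000002672), a matrix protein also called punctin-2, was at 52.4, 122 and 64.7 CPM in control and 100.6, 103.8 and 147.6 CPM in test libraries. Control replicate 2 exceeded test replicates 1 and 2, and the gene was not called (log2 fold change 0.56 ± 0.28, edgeR adjusted p = 0.218). Without control replicate 2 its log2 fold change was 1.01 (adjusted p = 0.00643), and with the span correction it was 0.81 (0.0494). ADAMTSL1, or punctin, averaged 18.3 ± 4.39 and 17.8 ± 2.15 CPM and was not called (adjusted p = 0.935).

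In the pair of ADAMTS16, which has been described as a fibronectin protease, and ADAMTS18, its closest relative, both members were tested and 1 fell. ADAMTS18 (ENSOCUG00000014350) had 28, 22 and 25 counts in control libraries, while test libraries had 0, 0 and 2. Test replicate 3 held every count of the test group. Scaled for depth, the 75 control counts against 2 test counts gave a ratio of 31.9. Its 95% interval, 8.54 to 268, covers counting error only. The edgeR log2 fold change was -4.79 (edgeR adjusted p = 0.025). The edgeR 95% interval for the ratio of test to control, which also takes in the spread among libraries, ran from 0.00609 to 0.214. With test replicate 3 left out, 0 test counts remained, so no ratio could be formed. The call also ended when no gene was filtered for low counts (adjusted p = 0.0527) and with the span correction plus a replicate block (0.0708). ADAMTS16 had 72, 26 and 48 counts in control and 34, 17 and 4 in test libraries and was not called (log2 fold change -1.09 ± 0.80, edgeR adjusted p = 0.407).

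The ADAM genes of the reproductive tract were nearly silent with 1 exception. ADAM2 (ENSOCUG00000006251), the fertilin beta subunit of the sperm surface, was at 42.3, 63.9 and 48.9 CPM in control and 71.9, 88.6 and 85.7 CPM in test libraries. Every test library was above every control library, with a 1.59-fold rise (log2 fold change 0.67 ± 0.17, edgeR adjusted p = 0.0274). In counts this was 1024 to 1394 per control library and 1271 to 1783 per test library. Whether these reads come from ADAM2 itself or from a paralog or overlapping gene cannot be told apart here. ADAM1A, the fertilin alpha subunit in the table's own description, had at most 4 counts in a library. ADAM18, a sperm protein, had at most 17 and ADAM7, a gene of the epididymis, at most 14, all 14 of them in control replicate 2. ADAM21, a testis gene, had at most 1 count.

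ADAM22 and ADAM23, brain receptors of LGI proteins without a working protease site, averaged 3.66 ± 1.05 and 1.77 ± 0.864 CPM in control and 3.58 ± 0.992 and 1.52 ± 0.444 CPM in test libraries. Neither was called (edgeR adjusted p = 0.969 and 0.852). ADAM11, the third of this kind, had 1 count in all 6 libraries, and ADAM33, a sheddase of smooth muscle cells and fibroblasts, had 2 to 20 counts per library. The 8 members below the filter were thus ADAM1A, ADAM7, ADAM11, ADAM18, ADAM21, ADAM33, ADAMTS8 and ADAMTS20, none of them above 1.73 CPM in a library.

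**Figure D3:**
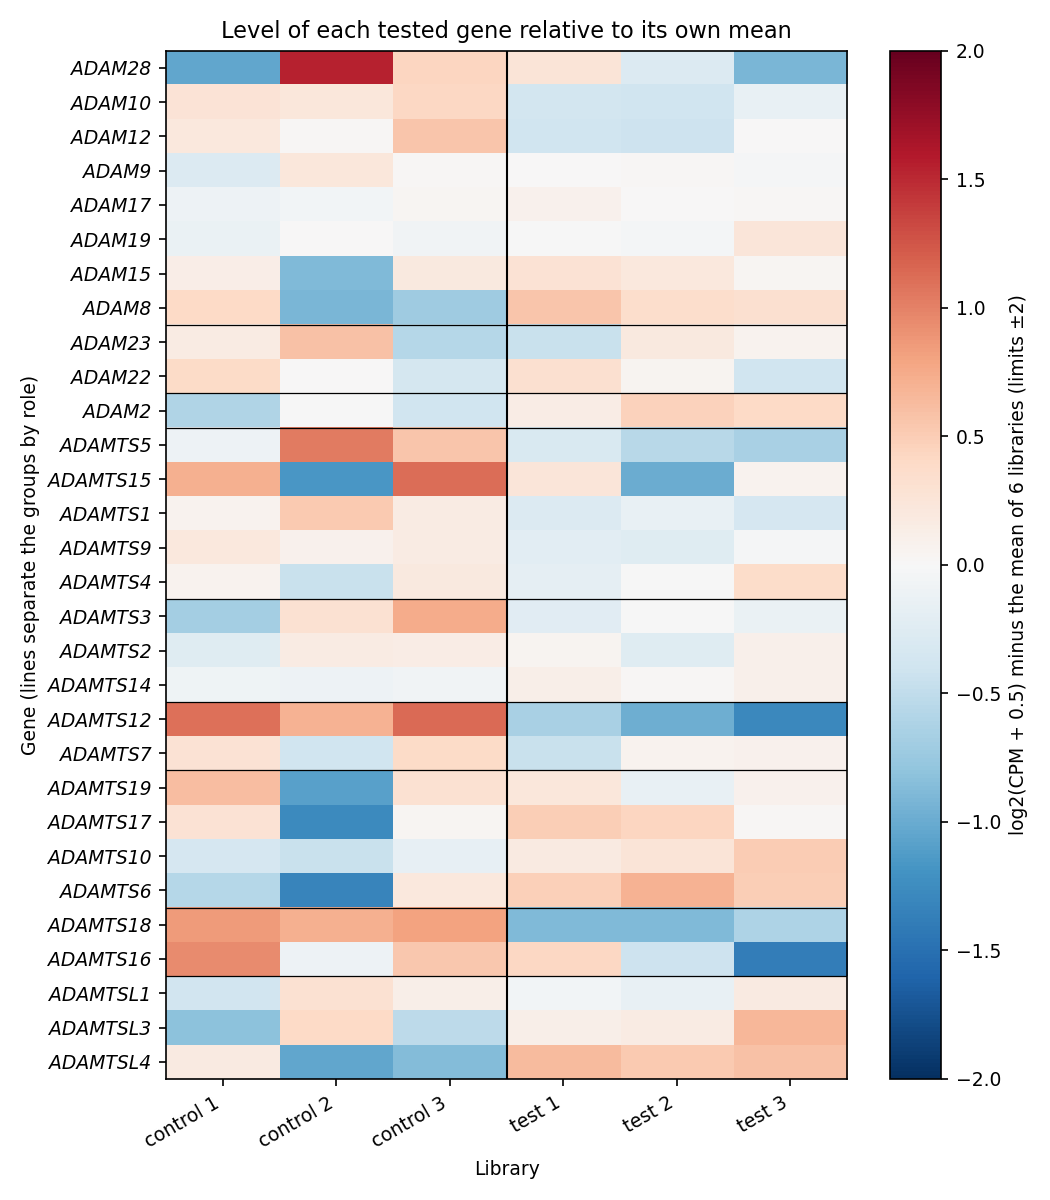
Level of each of the 30 tested genes in each library, as log2(CPM + 0.5) minus the gene's mean over the 6 libraries (colour), with lines between the groups by role. Control replicate 2 is low for ADAMTS15, ADAMTS17, ADAMTS6 and ADAMTSL4 and high for ADAMTS5 and ADAM28.

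Most tested genes varied more among control than among test libraries, and so did most members. The median coefficient of variation of the 30 was 25.4% in control and 12.5% in test libraries, beside 20.7% and 13.8% over all tested genes. It was larger in control for 22 of the 30 members, and for 66.9% of all tested genes. In the map of levels by library, control replicate 2 had the lowest control value for 17 of the 30 members and the highest for 10. Control replicate 3 had the lowest for 2. The matching shares over all tested genes were not computed, so these counts do not mark a trait of the members. Together the 38 members took 0.224%, 0.231% and 0.231% of all counts in control libraries, against 0.205%, 0.204% and 0.213% in test libraries. Without ADAMTS1 these shares were 0.164%, 0.159% and 0.171% in control and 0.162%, 0.158% and 0.172% in test libraries, so the groups overlapped once that single gene was left out.

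Genes that act with these proteases were taken from 8 lists of regulators and substrates, 84 genes in all, of which 64 were found by symbol in the table and 60 were tested. Of the 60, 9 rose and 8 fell, 28.3%, beside the 13.0% of all tested genes, with a median log2 fold change of 0.19. The lists were chosen with earlier results of these data known, so this share is no test of a link to the proteases. Of the listed genes, ACAN, COL2A1, HAPLN1, MATN3, COL1A1, DCN and VWF also served as cell type markers above. Their values here are thus not separate observations. Among the inhibitors 1 of 5 rose and 0 fell. TIMP1, which inhibits ADAM10 among others, averaged 417.1 ± 65.3 CPM in control and 1213 ± 235 CPM in test libraries, a 2.91-fold rise (edgeR adjusted p = 0.000714). TIMP3, the main tissue inhibitor of ADAM17, ADAMTS4 and ADAMTS5, averaged 97.5 ± 47.6 and 150 ± 18.3 CPM and was not called (adjusted p = 0.179). A2M, alpha-2-macroglobulin, a plasma protein that traps many proteases, averaged 165.9 ± 129 and 74.0 ± 21.1 CPM, at a log2 fold change of -1.16 in the opposite direction to TIMP1, and was not called either (adjusted p = 0.179).

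Of 7 tested genes for maturation, glycosylation and uptake, 2 rose and 0 fell. FURIN, the convertase that removes the inhibitory propeptide of many members, rose 1.82-fold, and FBLN1, fibulin-1, a cofactor of ADAMTS1, rose 7.71-fold, its control mean being 2.49 ± 1.05 CPM and its test mean 19.2 ± 0.547 CPM (edgeR adjusted p = 0.00271 and 0.000781). PCSK5, another propeptide convertase, had the smallest p of those not called, at a log2 fold change of 0.46 (adjusted p = 0.0848). B3GLCT, the next by p, went the other way at -0.68, with every test library below every control library (adjusted p = 0.134). Of 8 trafficking partners of ADAM10 and ADAM17, 1 rose and 0 fell. That gene was RHBDF2, or iRhom2, which carries ADAM17 to the cell surface, at 36.8 ± 14.2 and 70.2 ± 5.29 CPM (adjusted p = 0.0265). RHBDF1, or iRhom1, its relative, was not called at 0.69 (adjusted p = 0.0795).

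Of 15 tested membrane proteins that are shed, 2 rose and 1 fell, with a median log2 fold change of -0.13. TNFRSF1A, a TNF receptor, rose 1.52-fold and ICAM1, an adhesion molecule, rose 1.43-fold (edgeR adjusted p = 0.0137 and 0.0167). Of the genes not called, CDH2 (N-cadherin), NOTCH2 and NOTCH3, which ADAM10 sheds, had the smallest p. Their log2 fold changes were -0.96, -0.41 and -0.67 (edgeR adjusted p = 0.0623, 0.145 and 0.111). APP and CD44, on the same list, did not fall, at 0.16 and 0.03 (adjusted p = 0.651 and 0.88). TNF itself averaged 7.45 ± 4.74 and 6.81 ± 1.59 CPM (adjusted p = 0.884).

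Among proteoglycan and cartilage substrates 2 of 7 rose and 1 fell. BGN, biglycan, rose 2.24-fold and FMOD, fibromodulin, 2.76-fold, while DCN, decorin, fell 1.58-fold (edgeR adjusted p = 0.00446, 0.0103 and 0.0372). ACAN, the aggrecan core protein, averaged 996.3 ± 510 and 1980 ± 317 CPM without overlap of the groups but was not called (log2 fold change 0.99 ± 0.30, adjusted p = 0.0554). VCAN, versican, averaged 494.4 ± 80.5 and 574.3 ± 26.5 CPM (adjusted p = 0.312).

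Of 6 fibrillar procollagen genes 3 fell and 0 rose. COL1A1 fell 1.71-fold (edgeR adjusted p = 0.0177), and COL1A2, the other chain of type I collagen, fell 1.9-fold (0.00519). COL3A1, the chain of type III collagen, fell 2.02-fold (0.00277), whereas the enzymes that trim these propeptides held no call. COL5A2, a chain of type V collagen, was not called at a log2 fold change of 0.32 (adjusted p = 0.298). Of 7 fibrillin microfibril partners 1 rose and 1 fell. LTBP2, a fibrillin-binding protein, rose 2.48-fold and MFAP5, a microfibril glycoprotein, fell 4.88-fold (adjusted p = 0.02 and 0.000542). FN1, fibronectin, was not called at a log2 fold change of 0.89 (adjusted p = 0.0676). Of 5 other secreted substrates 2 fell and 0 rose, VWF, the clotting factor cut by an ADAMTS enzyme, by 2.07-fold and VEGFC, a lymphatic growth factor, by 1.64-fold (adjusted p = 0.0237 and 0.0219). KITLG, the ligand of the receptor KIT, was not called at -0.60 (adjusted p = 0.192).

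Of these 17 calls, 8 held without any single library, among them TIMP1, FURIN, FBLN1, BGN, COL1A2, COL3A1 and MFAP5, and all 17 held without control replicate 1 or 2. COL1A1, DCN, RHBDF2, VEGFC and VWF were each lost when control replicate 3 or a test library was left out, with adjusted p between 0.0506 and 0.147. ICAM1 and LTBP2 also ended without any single test library, TNFRSF1A without test replicate 1 or 3, and FMOD without test replicate 3, all within that range. The span correction ended DCN, ICAM1, VEGFC and VWF (adjusted p from 0.0658 to 0.201).

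**Figure D4:**
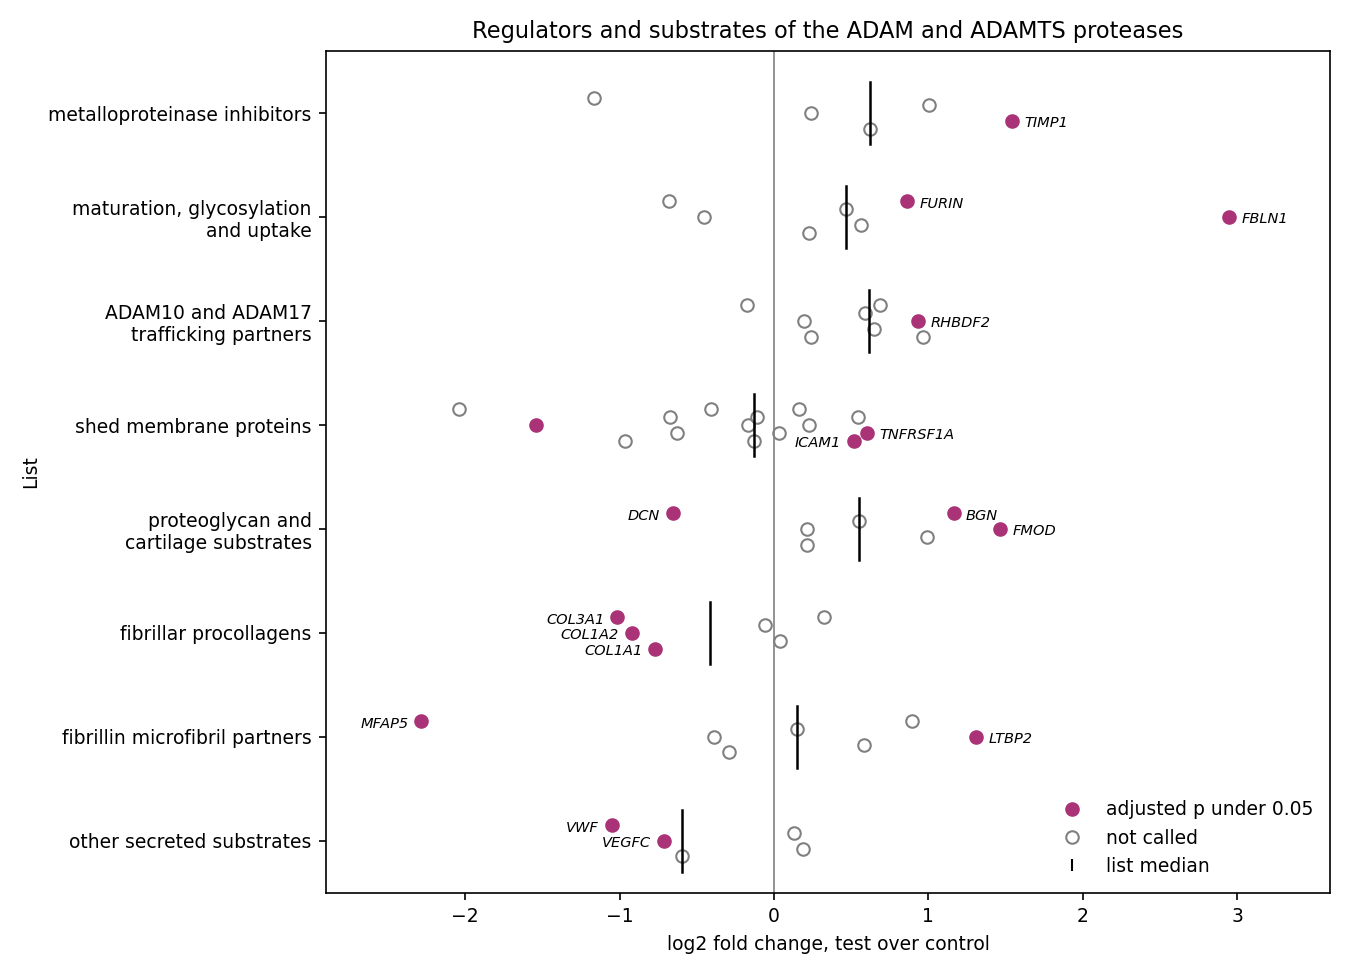
Log2 fold change of test over control for the 60 tested regulators and substrates in 8 lists (rows), with filled points, all but 1 of them named, for an edgeR adjusted p under 0.05 and a black line at each list's median. Inhibitors and maturation genes hold filled points only on the higher side, at 1.54 for TIMP1 and 2.95 for FBLN1, and procollagens only on the lower side.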

How the data were processed

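RNA of 6 rabbit samples was sequenced after ribosomal RNA removal with a stranded total RNA kit, per the labels' protocols. The authors deposited raw counts per gene, which are whole numbers, per the file headers. A second block of 6 per-sample columns, counts normalized by the authors with edgeR per the file headers, was not used. Per the submitters' processing notes the tools were cutadapt 1.9.3, HISAT2 and Cuffdiff, with no role stated. The build listed there, rn6, is of the rat, whereas the table's genes carry Ensembl identifiers of the rabbit. How reads were assigned to genes, with or without strand, and from which annotation, is not given in the sources used here, so reads shared with paralogs or overlapping genes cannot be told apart.

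Counts of all 16367 genes were fitted with edgeR 4.0.16 in R 4.3.3 (TMM, filterByExpr with minimum count 10 and minimum total 15, glmQLFit and glmQLFTest, two-sided), with no block or covariate. Benjamini-Hochberg adjustment covered the 12740 genes kept. Standard errors were taken as |log2 fold change|/√F, and 95% intervals use the test's degrees of freedom. The interval for the ratio of ADAMTS18 counts is the exact binomial one. Alternatives were DESeq2 1.42.0 size factors within edgeR, the DESeq2 Wald test, limma-voom (limma 3.58.1), no filter, a mean CPM of at least 5, the replicate number as a block, leaving out each library, and removal of each library's trend (lowess, fraction 0.5, log2 CPM with pseudocount 0.5) with log2 genomic span. Spans and neighbours came from RefSeq gene records of a rabbit assembly that is not the authors' build. All 38 members had a record, as did 69.7% of all tested genes. The edgeR fit was tested on simulated data.

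Members, roles and partner and marker lists were chosen with earlier results of these data known. Levels in every library are given for called members, for the 10 tested members with the most CPM and for uncalled members with an unadjusted p under 0.05. ADAMTS4, given in every library too, and ADAM28 and ADAMTS16, given by their counts, were picked outside these rules. Partner genes named are the called ones and, per list, 1 to 3 others with the smallest p. TNF, APP and CD44 were picked after their values were seen. A called partner gene is counted but not reported here by name. No sequences are given.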

Additional observations from a re-analysis of the deposited data

How the results depend on the processing

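The counts of called members, 3 higher and 5 lower, kept within 1.5 times of these values under DESeq2 size factors, the DESeq2 Wald test, limma-voom, both other filters and both span corrections. Leaving out 1 library at a time gave 0 to 4 members higher and 1 to 6 lower, and 4 to 16 partner genes higher and 4 to 14 lower in place of 9 and 8. The count of 0 higher (edgeR) arose without control replicate 3, with 4 members higher at an unadjusted p under 0.05, and without each test replicate, with 3, and no other tool was run on these subsets. Calls over all genes, 872 higher and 783 lower with all libraries, dropped to 396 and 314 without control replicate 3 and to 245 and 201 without test replicate 3. They rose to 1185 and 978 without control replicate 1 and to 1020 and 905 without control replicate 2. The span correction gave 5 partner genes lower in place of 8. The labels do not say whether the replicate numbers pair the samples. Same-numbered libraries deviated from their group means with correlations of -0.02 to 0.07. Not every library correlated best with its own number. With 3 libraries per group these correlations cannot decide whether samples were paired. With the replicate block 4 members were higher and 5 lower, the added one being ADAM8 (adjusted p = 0.0255), and 1681 genes were called in all, against 1655 without it.

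A further 7 members, none of them called, changed sign in some alternative, and their main log2 fold changes were all within 0.22 of 0. With the span correction, and with it plus the replicate block, the log2 fold change was 0.21 and 0.22 for ADAMTSL1, 0.17 and 0.18 for ADAM22, 0.16 and 0.16 for ADAMTS2, 0.065 and 0.69 for ADAMTS19 and -0.0838 and -0.0911 for ADAMTS4, and with both it was 0.0541 for ADAM23. ADAMTS19 was at 0.53 with the replicate block alone and 1.08 with limma-voom. ADAM9 was at -0.00577 with DESeq2 size factors, at -0.00575 with the DESeq2 Wald test and at -0.00115 with a mean CPM of at least 5. Leaving out 1 library gave -0.20 to 0.13 for ADAMTSL1, -0.23 to 0.21 for ADAM22, -0.54 to 0.17 for ADAM23, -0.66 to 0.59 for ADAMTS19, -0.0491 to 0.26 for ADAMTS4, -0.11 to 0.13 for ADAM9 and -0.16 to 0.0514 for ADAMTS2. The cause of these changes was not tested. ADAM28, ADAMTS16, ADAMTS18 and ADAMTS19 rest on few counts, and their intervals are wide.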
